A study of Homo sapiens with 6 samples.

Results

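The genes described here make, recycle and use glutathione. They were taken by gene name from the count table and are GPX1, GPX2, GPX3, GPX4, GSR, GCLC, GCLM, GSS, GSTP1 and MGST1, that is 10 of the 58735 genes listed. All 10 passed the filter on low counts, as did 15754 genes in all. RNA was sequenced from A549, a human lung adenocarcinoma cell line, in 2 groups. Control cells carried an empty lentiviral vector. IL17D-overexpressing cells carried a lentiviral vector in which the human PGK promoter drives a FLAG-tagged IL17D open reading frame, followed by an IRES and GFP. The IRES and GFP belong to the vector backbone, and the sequence of the empty vector is not given. Both groups of cells were grown in RPMI1640 medium with serum, and each group had 3 libraries. Whether these came from separate transductions or cultures is not given in the sources used here, so p-values measure the spread between these libraries, which may be technical.

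Glutathione is a tripeptide of glutamate, cysteine and glycine and the most abundant thiol of the cell. GCLC, the catalytic subunit of glutamate-cysteine ligase, performs the rate-limiting step of its synthesis together with the modifier subunit GCLM, and GSS adds glycine. Glutathione peroxidases spend reduced glutathione on hydrogen peroxide and lipid hydroperoxides, GSR returns the oxidized form to the reduced form with NADPH, and the transferases GSTP1 and MGST1 couple it to electrophiles. Many of these genes are activated by NRF2 through antioxidant response elements, and A549 cells are known for a KEAP1 mutation that leaves NRF2 active.

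Total counts ranged from 14319398 to 16521021 over the 6 libraries. IL17D had 18 to 34 counts in the control libraries and 26772 to 32155 in the IL17D-overexpressing libraries, as the labels state. Of 6 epithelial markers, 5 had a mean of at least 1 CPM (counts per 1e6 counts of the TMM-scaled library total), among them KRT8 and KRT18. KRT19 was near 0, and EPCAM averaged 1.05 CPM in control cells. Of 11 markers of leukocytes, endothelium, fibroblasts and hepatocytes, COL1A1 alone had a mean of at least 1 CPM, and PTPRC, CD3E and MS4A1 had no count. The epithelial markers summed to 12737 to 13243 CPM in control and 12371 to 12619 CPM in IL17D-overexpressing libraries, and the other markers to 23.4 to 26.0 and 20.5 to 25.2 CPM. CDH1, the adhesion protein E-cadherin, fell from 43.4 ± 2.65 to 35.7 ± 3.32 CPM (SD, n = 3 each, adjusted p = 0.031 by edgeR). The part of these marker levels in the results below was not tested.

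The sequence before the transcription start is shown for the members whose promoter holds an antioxidant response element core, TGACNNNGC, where N is any base. Promoters of 8 members were matched in the RefSeq table for GRCh38.p14, and those of GSR and GSS were not used here. In the 250 bases before the start, on either strand, the core was found for GPX2, GCLM and GSTP1. It was not found for GPX1, GPX3, GPX4, GCLC and MGST1, for which every listed start was searched. Of all 35116 promoters of this length, 10.9% hold it. This share is per start, while the members are counted per gene, and GPX4 and MGST1 have several starts. The sequences run 5′ to 3′ on the strand of the gene and end at the base before the RefSeq start, with the core in capitals.
GPX2 (chr14:64942746-64942995, minus strand): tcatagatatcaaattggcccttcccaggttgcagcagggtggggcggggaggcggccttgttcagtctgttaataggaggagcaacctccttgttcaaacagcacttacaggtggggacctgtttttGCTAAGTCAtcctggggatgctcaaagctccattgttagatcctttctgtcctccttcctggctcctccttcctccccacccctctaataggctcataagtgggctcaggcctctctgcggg
GCLM (chr1:93909431-93909680, minus strand): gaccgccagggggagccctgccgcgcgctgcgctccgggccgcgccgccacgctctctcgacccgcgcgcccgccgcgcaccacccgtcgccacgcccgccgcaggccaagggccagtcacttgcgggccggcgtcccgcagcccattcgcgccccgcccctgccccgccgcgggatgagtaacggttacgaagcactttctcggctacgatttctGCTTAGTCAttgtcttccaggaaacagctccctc
GSTP1 (chr11:67583562-67583811, plus strand): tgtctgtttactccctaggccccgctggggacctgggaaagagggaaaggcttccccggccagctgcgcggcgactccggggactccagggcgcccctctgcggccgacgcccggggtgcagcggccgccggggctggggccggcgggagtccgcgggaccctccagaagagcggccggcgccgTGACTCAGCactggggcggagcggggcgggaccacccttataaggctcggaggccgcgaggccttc
The core began 122 bases before the start in GPX2, 34 in GCLM and 66 in GSTP1. These RefSeq starts lie inside the gene bounds of the count table given below. Most of the GPX2 and GSTP1 windows, with their cores, therefore lies within the listed gene. In GPX2 and GCLM it lies on the opposite strand, where it reads TGACTTAGC and TGACTAAGC, and in GSTP1 it reads TGACTCAGC on the strand of the gene. The GSTP1 core overlaps an AP-1 site, TGANTCA, which 6.57% of promoters hold and which the windows of the other matched members lack. These matches describe the letters and do not show that a factor binds there.

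Of the 10 genes, GPX2 passed the test in IL17D-overexpressing cells and fell by 13.7% (95% interval, -17.6 to -9.67%). The other 9 did not pass, and each of their estimates was within 10% of the control level. Their 95% intervals reached from -14.0 to 17.05%, so larger changes are not excluded for all of them. These intervals are not adjusted for the number of genes, and those of 5 members, GPX2 among them, left out 0. In RNA of whole cultures, fewer cells with a transcript and less of it per cell cannot be told apart. At an adjusted p under 0.05, 1 member (10%) was called lower and 0 higher, where 1.58% of all tested genes were called, 0.908% lower and 0.673% higher. At an unadjusted p under 0.05, 4 members were lower and 1 higher, against 5.99% and 5.59% of all tested genes. For 3 members (30%), GPX2, GCLC and GCLM, all IL17D-overexpressing libraries lay below all control libraries, which held for 8.31% of all tested genes. The reverse held for 0 members and 7.48% of all tested genes, so that 15.8% of all tested genes had groups that did not overlap. The log2 fold change was below 0 for 7 of the 10, against 50.1% of tested genes, and its median was -0.045 against -0.00044 for all. The members were chosen with earlier results of these data known, so the all-gene shares are no independent yardstick for them. Each member had between 317 and 14312 counts in every library, and the biological coefficient of variation of the members was 2.90 to 5.58%.

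**Figure D1:**
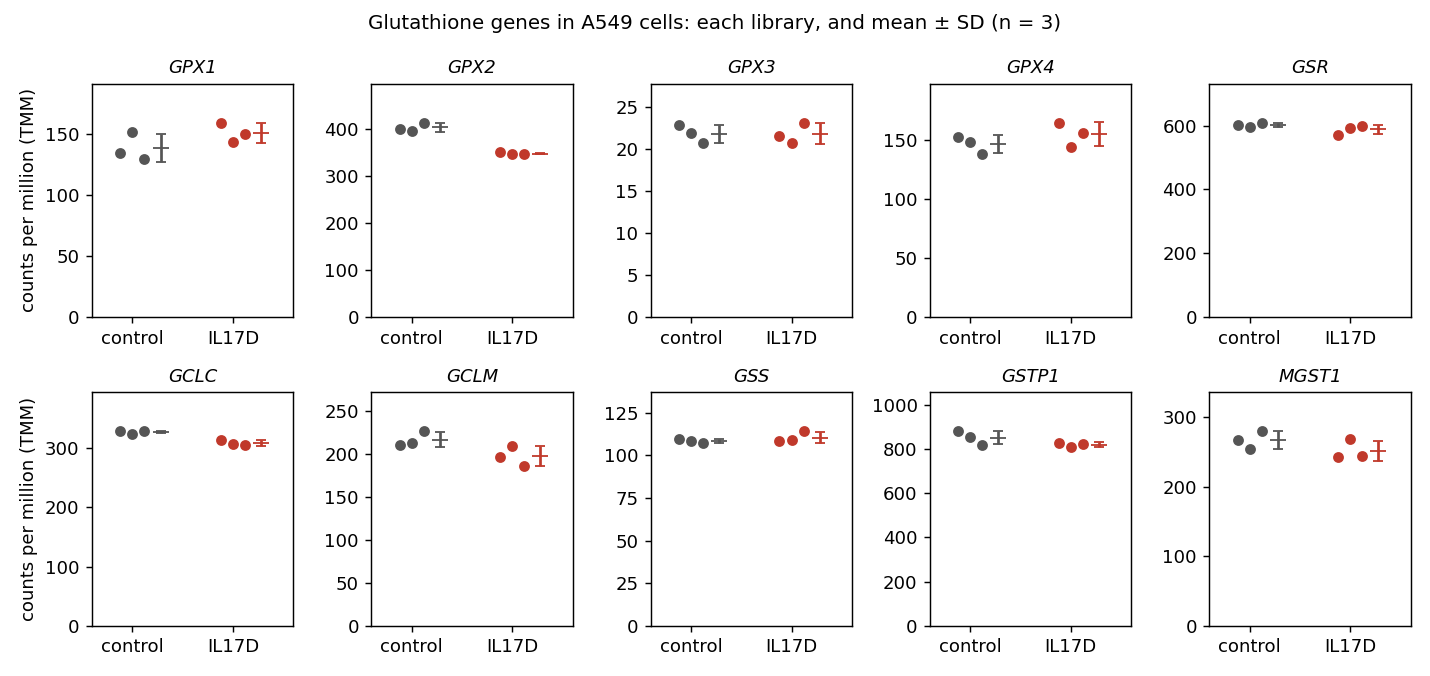
TMM-scaled CPM of the 10 glutathione genes (y axis, from 0) in each control (grey) and IL17D-overexpressing (red) library, with the mean and SD of 3 libraries beside the points. GPX2 sits between 347 and 351 CPM in the IL17D-overexpressing libraries and between 398 and 415 CPM in the control libraries.

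GPX2 (ENSG00000176153, chromosome 14 of GRCh38, 64939152 to 64942905, minus strand) encodes the glutathione peroxidase of gut and other epithelia, a selenoprotein that reduces hydrogen peroxide. It had 400.0, 398 and 415 CPM in control replicates 1, 2 and 3 and 351, 347 and 348 CPM in IL17D-overexpressing replicates 1, 2 and 3. The groups are 404 ± 9.26 CPM and 349 ± 2.11 CPM (SD, n = 3 each) and do not overlap. The log2 fold change was -0.21 (standard error 0.033, adjusted p = 7.5e-05 from the quasi-likelihood F test of edgeR, adjusted over all tested genes), a level 1.16-fold lower. By p, GPX2 ranked 38 among the 15754 tested genes. Over the 13 alternatives its adjusted p in edgeR, DESeq2 or limma lay between 2.3e-07 and 0.0029. Of the stretches of 31 bases in its transcripts, 1.33% occur in other genes. CHURC1 lies across it on the opposite strand and has no exon base in common with it.

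GPX1 (ENSG00000233276, chromosome 3, 49357171 to 49358600, minus strand) encodes the abundant cytosolic and mitochondrial peroxidase, and the authors' table classes it as a polymorphic pseudogene. Its levels were 135, 152 and 129 CPM in control replicates 1, 2 and 3 and 160, 143 and 151 CPM in IL17D-overexpressing replicates 1, 2 and 3. Control replicate 2 lies above 2 of the IL17D-overexpressing libraries, so the groups overlap. The means were 139 ± 11.6 and 151 ± 8.13 CPM (SD, n = 3 each), and GPX1 differed by 9.25% (95% interval, 1.98 to 17.05%, log2 0.13, adjusted p = 0.26 in edgeR). Without control replicate 2, the log2 fold change was 0.20 and GPX1 passed (adjusted p = 0.039 in edgeR), while it was 0.081 without control replicate 3 (adjusted p = 0.55) and 0.087 without IL17D-overexpressing replicate 1 (adjusted p = 0.65). Of its stretches of 31 bases, 22.3% occur in other genes, mainly in the pseudogene GPX1P1, which averaged 13 counts where GPX1 averaged 2266.

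GPX4 (ENSG00000167468, chromosome 19, 1103926 to 1106791, plus strand) reduces lipid hydroperoxides within membranes and is the peroxidase that holds back ferroptosis, a form of cell death by lipid peroxidation. It had 153, 148 and 138 CPM in control replicates 1, 2 and 3 and 165, 144 and 156 CPM in IL17D-overexpressing replicates 1, 2 and 3. The groups overlap, and its change of 5.97% had a 95% interval from -0.755 to 13.1% (log2 0.084, adjusted p = 0.52 in edgeR). The log2 fold change of GPX4 was 0.037 without IL17D-overexpressing replicate 1, 0.043 without control replicate 3 and 0.13 without IL17D-overexpressing replicate 2, and none of these passed. GPX3 (ENSG00000211445, chromosome 5, 151020438 to 151028993, plus strand), the secreted plasma peroxidase, ranged from 20.8 to 22.9 CPM in control and from 20.8 to 23.2 CPM in IL17D-overexpressing libraries. Its interval, from -11.7 to 13.1%, is wide, and its estimate of -0.0363% changed sign between settings (adjusted p = 0.999 in edgeR). No stretch of 31 bases of GPX3 or GPX4 occurs in another gene.

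GCLM and GCLC, the subunits of the enzyme that starts glutathione synthesis, were lower in every IL17D-overexpressing library than in any control library but did not pass the test. GCLM (ENSG00000023909, chromosome 1, 93885205 to 93909456, minus strand) had 210, 212 and 226 CPM in control replicates 1, 2 and 3 and 196, 209 and 186 CPM in IL17D-overexpressing replicates 1, 2 and 3. IL17D-overexpressing replicate 2 came within 1 CPM of the lowest control library. The log2 fold change was -0.13 (standard error 0.042, adjusted p = 0.12 in edgeR), a change of -8.77% with a 95% interval from -14.0 to -3.23%. Without that replicate it was -0.18 (adjusted p = 0.028 in edgeR), and without IL17D-overexpressing replicate 3 it was -0.092 (adjusted p = 0.55).

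GCLC (ENSG00000001084, chromosome 6, 53497341 to 53616970, minus strand) had 329, 325 and 328 CPM in control replicates 1, 2 and 3 and 314, 307 and 306 CPM in IL17D-overexpressing replicates 1, 2 and 3. The libraries lay close together, with 327 ± 2.09 and 309 ± 4.48 CPM (SD, n = 3 each), and the groups do not overlap. The change was -5.66% (95% interval, -10.0 to -1.11%, adjusted p = 0.29 in edgeR). The lincRNA AL033397.1 covers 6.12% of the exon bases of GCLC on the same strand and averaged 156 counts against 4983 for GCLC. GSS (ENSG00000100983, chromosome 20, 34928433 to 34956027, minus strand), the second enzyme of the synthesis, had 107 to 109 CPM in control and 109 to 114 CPM in IL17D-overexpressing libraries. Its change of 1.91% had a 95% interval from -4.28 to 8.50% (log2 0.027, adjusted p = 0.89 in edgeR), and its log2 fold change was 0.0052 without IL17D-overexpressing replicate 3.

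GSR (ENSG00000104687, chromosome 8, 30678061 to 30727999, minus strand), the reductase that regenerates glutathione, had 603, 597 and 610.2 CPM in control replicates 1, 2 and 3 and 572, 593 and 600.4 CPM in IL17D-overexpressing replicates 1, 2 and 3. The groups overlap, and the change was -2.51% (95% interval, -6.62 to 1.79%, log2 -0.037, adjusted p = 0.72 in edgeR), or a log2 fold change of -0.016 without IL17D-overexpressing replicate 1. The estimate of GPX2, -13.7%, lies outside this interval. It also lies outside the intervals of the other members that did not pass, except GCLM (-14.0 to -3.23%). The interval of GPX2 (-17.6 to -9.67%) overlaps those of GCLM, GPX3 (lower end -11.7%), MGST1 (-11.2%) and GCLC (-10.0%). Whether the members differed from each other in their change was not tested.

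GSTP1 (ENSG00000084207, chromosome 11, 67583595 to 67586656, plus strand), the main cytosolic transferase of epithelial cancers, had 881, 857 and 819 CPM in control replicates 1, 2 and 3 and 829, 809 and 824 CPM in IL17D-overexpressing replicates 1, 2 and 3. Control replicate 3 lies among the IL17D-overexpressing libraries, and the change of -3.69% had a 95% interval from -7.70 to 0.479% (log2 -0.054, adjusted p = 0.51 in edgeR). Its log2 fold change was -0.028 without control replicate 1 and -0.082 without control replicate 3, and neither passed. MGST1 (ENSG00000008394, chromosome 12, 16347142 to 16609259, plus strand), a membrane-bound transferase with peroxidase activity, had 267, 254 and 279 CPM in control replicates 1, 2 and 3 and 242, 268 and 243 CPM in IL17D-overexpressing replicates 1, 2 and 3. The groups overlap through IL17D-overexpressing replicate 2, and the change was -5.96% (95% interval, -11.2 to -0.406%, log2 -0.089, adjusted p = 0.38 in edgeR). The log2 fold change of MGST1 was -0.14 without that replicate and -0.054 without control replicate 3, and neither passed. Of the genes whose window holds the antioxidant response element core, GPX2 passed the test and GCLM and GSTP1 did not.

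**Figure D2:**
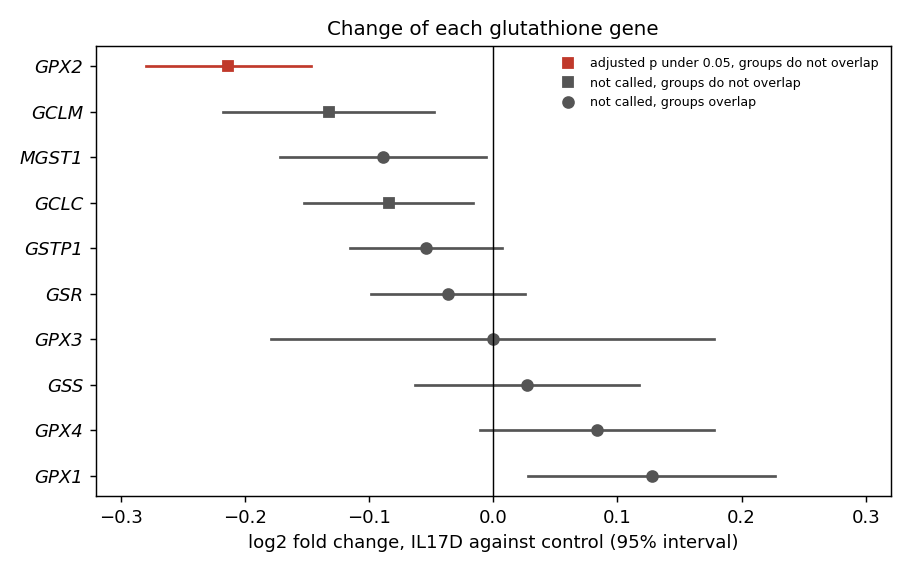
Log2 fold change of each glutathione gene in IL17D-overexpressing against control cells (x axis), with its 95% interval from edgeR as a line. Red marks the adjusted p under 0.05 of GPX2 (-0.21), and squares mark GPX2, GCLM and GCLC, whose groups of 3 libraries do not overlap.

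Ratios of counts within a library do not depend on how libraries are scaled, and 5 of them were compared with a two-sided exact permutation test, which cannot give a p under 0.1 for 3 libraries against 3. The ratio of GPX2 to GPX1 was 2.97, 2.62 and 3.21 in control replicates 1, 2 and 3 and 2.20, 2.42 and 2.31 in IL17D-overexpressing replicates 1, 2 and 3. The groups do not overlap, and the log2 ratio differed by -0.34 (exact p = 0.1, 0.5 after Benjamini-Hochberg adjustment over the 5 ratios). The ratio of GCLM to GCLC was 0.660 ± 0.026 in control and 0.638 ± 0.039 in IL17D-overexpressing libraries (SD, n = 3 each, exact p = 0.4), so the balance of the ligase subunits differed by less than its spread between libraries. GSR to GPX1 (log2 difference -0.16, exact p = 0.3), GPX4 to GPX1 (-0.045, exact p = 0.5) and MGST1 to GSTP1 (-0.035, exact p = 0.5) overlapped between the groups.

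**Figure D3:**
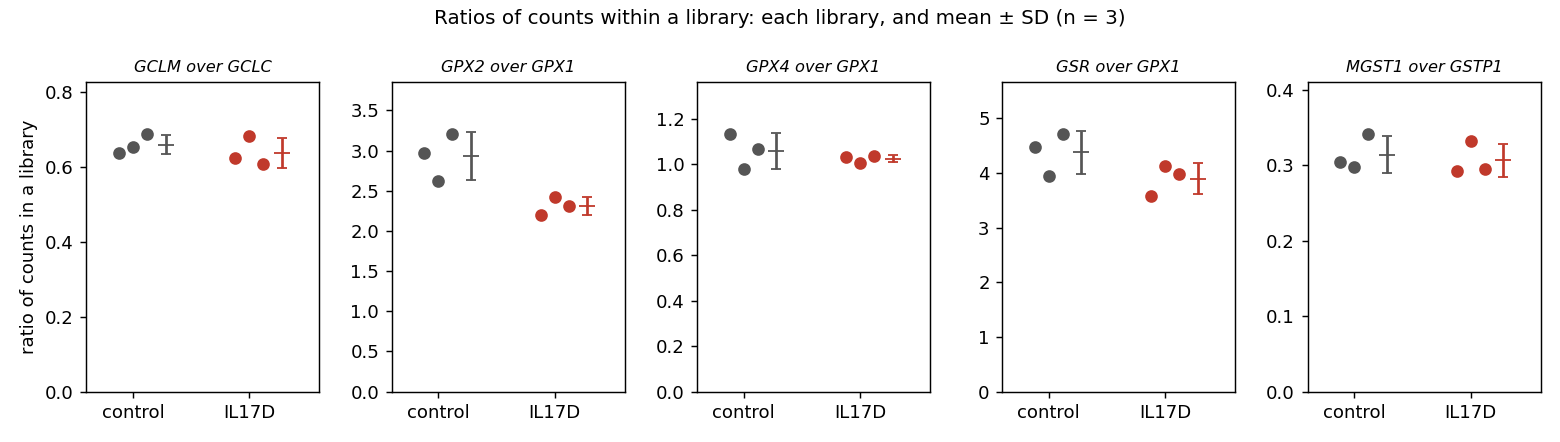
Ratios of counts of 2 glutathione genes within each library (y axis, from 0), with the mean and SD of 3 libraries, for control (grey) and IL17D-overexpressing cells (red). The ratio of GPX2 to GPX1 is 2.20 to 2.42 in the IL17D-overexpressing libraries and 2.62 to 3.21 in the control libraries, and the other 4 ratios overlap.

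Levels were compared between genes as CPM per kilobase of the gene length in the authors' table. GSTP1 was the highest, with 446 ± 16.3 in control cells (SD, n = 3), within the top 0.362% of tested genes. GPX2 followed with 270 ± 6.18, GSR with 161 ± 1.74, GPX1 with 96.9 ± 8.12 and GPX4 with 72.4 ± 3.78. GCLM (39.9 ± 1.63), GCLC (37.9 ± 0.242) and MGST1 (35.9 ± 1.69) were close to each other, and in IL17D-overexpressing cells the libraries of each overlapped those of its neighbour in this order. GSS (17.6 ± 0.186) and GPX3 (6.91 ± 0.336) were the lowest. The listed length joins the exons of all transcripts. The median length of a gene's annotated transcripts was also used, counting only those of protein-coding or polymorphic pseudogene type. With it, the order between GSTP1 and GPX3 changed, and MGST1 moved from 8 to 4. Per kilobase of listed length, GPX2 made up 58.7 ± 1.75% of the summed level of GPX1, GPX2, GPX3, GPX4 and GPX8 in control cells and 53.4 ± 1.15% in IL17D-overexpressing cells (SD, n = 3 each). GPX1 made up 21.1 ± 1.57% and 24.3 ± 0.638%.

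**Figure D4:**
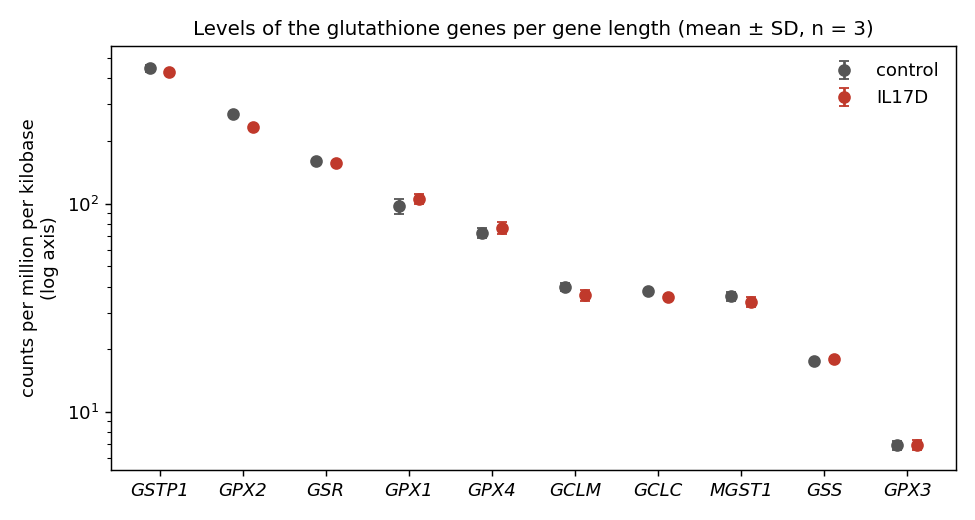
Levels of the glutathione genes in CPM per kilobase of listed gene length (y axis, log scale), as the mean and SD of 3 control (grey) and 3 IL17D-overexpressing (red) libraries. GSTP1 stands at 446 and GPX3 at 6.91 in control cells, and GCLM, GCLC and MGST1 lie together between 35.9 and 39.9.

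The genes whose log2 CPM was most like that of GPX2 over the 6 libraries, out of 9740 others with a mean of at least 10 CPM, were BTBD11, HSP90B1 and ANXA4 (Pearson's r of 0.993, 0.992 and 0.992). These points share their libraries and the difference between the groups. The genes were picked for this likeness to GPX2, so their own changes are no separate result. Of these genes, BTBD11 (log2 fold change -0.27, adjusted p = 0.0032 in edgeR) and ANXA4 (-0.16, adjusted p = 0.0064) were called lower, and HSP90B1 was not (-0.075, adjusted p = 0.24).

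Glutathione genes outside the 10 were read from lists by role. The lists were chosen with earlier results of these data known, so their counts of calls are descriptive. For cysteine supply, 0 of 8 tested genes were called, beside 1.58% of all tested genes in either direction. SLC7A11, the cystine importer, had 556 ± 33.6 and 524 ± 14.1 CPM (adjusted p = 0.31 in edgeR), and its partner SLC3A2 1290 ± 23.5 and 1306 ± 29.7 CPM (adjusted p = 0.88) in control and IL17D-overexpressing cells (SD, n = 3 each). The smallest p of this list was that of SLC1A5, a glutamine transporter (log2 fold change -0.092, adjusted p = 0.28).

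Of 20 other glutathione transferases, 11 could be tested and 1 was called lower, beside 0.908% of all tested genes. MGST2, a microsomal transferase that also makes leukotriene C4, had 20.4, 20.5 and 21.02 CPM in control replicates 1, 2 and 3 and 15.3, 15.2 and 15.6 CPM in IL17D-overexpressing replicates 1, 2 and 3. The groups do not overlap, and MGST2 fell by 25.6% (log2 fold change -0.43, standard error 0.094, adjusted p = 0.0083 in edgeR). GSTA1, GSTA3, GSTA5, GSTM1, GSTM5, GSTT2 and GSTT2B had 0 counts in all 6 libraries, as did the peroxidases GPX5, GPX6 and GPX7. A count of 0 allows up to 3 counts, or 0.182 to 0.210 CPM depending on the library, and this covers counting error only. Of the other peroxidases only GPX8, of the endoplasmic reticulum, could be tested (log2 fold change 0.030, adjusted p = 0.91).

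Of 7 genes for glutathione transport, 2 were called lower and 0 higher, against 0.908% and 0.673% of all tested genes. ABCC3, an exporter of glutathione and glucuronide conjugates, had 590, 582 and 580.1 CPM in control replicates 1, 2 and 3 and 492, 483 and 497 CPM in IL17D-overexpressing replicates 1, 2 and 3. The groups do not overlap, and ABCC3 fell by 16.0% (log2 fold change -0.25, standard error 0.031, adjusted p = 1.2e-06 in edgeR). ABCC1, which exports glutathione conjugates and oxidized glutathione, fell from 386 ± 2.68 to 354 ± 8.16 CPM (SD, n = 3 each, adjusted p = 0.037 in edgeR). ABCC1 lost its call when control replicate 1 or 2 or IL17D-overexpressing replicate 1 or 3 was left out (adjusted p of 0.114, 0.113, 0.218 and 0.239) and with the replicate number as a block (adjusted p = 0.051).

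In the lists for glutathione breakdown, glutaredoxins and glutathione-dependent enzymes, selenoprotein synthesis, other selenoproteins and ferroptosis, 0 of 9, 10, 10, 15 and 10 tested genes were called. Of all tested genes, 1.58% were called in either direction, so 0 calls do not set lists this short apart. At an unadjusted p under 0.05 in edgeR, 0, 0, 0, 1 and 3 genes of these lists, in this order, were higher. In the same order 1, 2, 0, 0 and 1 were lower, against 5.59% higher and 5.99% lower of all tested genes. The smallest p-values in these lists were those of GGT1, which starts the breakdown of extracellular glutathione (log2 fold change -0.14, adjusted p = 0.12 in edgeR), and PTGES, a glutathione-dependent prostaglandin synthase (-0.13, adjusted p = 0.18). SEPHS2, which makes the selenium donor of selenoproteins, had -0.080 (adjusted p = 0.53), the selenoprotein SELENOW 0.22 (adjusted p = 0.090) and the mitochondrial channel VDAC2 0.13 (adjusted p = 0.068). SELENOW and VDAC2 passed as higher without control replicate 1 (log2 fold changes of 0.30 and 0.16, adjusted p of 0.023 and 0.040 in edgeR). GGT1 passed as lower without control replicate 3 (-0.18, adjusted p = 0.023 in edgeR) and with all genes of at least 1 count (adjusted p = 0.039), and it was -0.080 without control replicate 1 (adjusted p = 0.59). GGT1 has 46.1% of its stretches of 31 bases in other genes, and reads of its copies may be counted with it.

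Of NRF2 target genes outside glutathione metabolism, 7 of 19 tested genes were called lower and 0 higher, where 0.908% of all tested genes were called lower and 0.673% higher. Their median log2 fold change was -0.092, against -0.00044 for all tested genes. This list was chosen with earlier results of these data known, so the all-gene share is no independent yardstick for it. Whether its median differed from that of the 10 glutathione genes was not tested. Among the genes called lower were the aldo-keto reductases AKR1B10, AKR1C1, AKR1C2 and AKR1C3 (log2 fold changes of -0.23, -0.30, -0.29 and -0.27). The transketolase TKT (-0.12) and FTL, the ferritin light chain (-0.11), were called lower as well. AKR1B10, AKR1C1, AKR1C2 and FTL have 31.3%, 35.7%, 48.2% and 33.2% of their stretches of 31 bases in other genes, among which reads may be divided. FTL lost its call without control replicate 3 (adjusted p = 0.097 in edgeR), IL17D-overexpressing replicate 1 (0.20) or IL17D-overexpressing replicate 3 (0.14). NQO1, a quinone reductase and classical NRF2 target, had 1481 ± 15.4 and 1494 ± 25.1 CPM (SD, n = 3 each, adjusted p = 0.91 in edgeR). Over the 10 lists together, 10 of 100 tested genes were called lower and 0 higher, beside 0.908% and 0.673% of all tested genes. The median log2 fold change was -0.048, and 7 of these calls came from the NRF2 list.

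**Figure D5:**
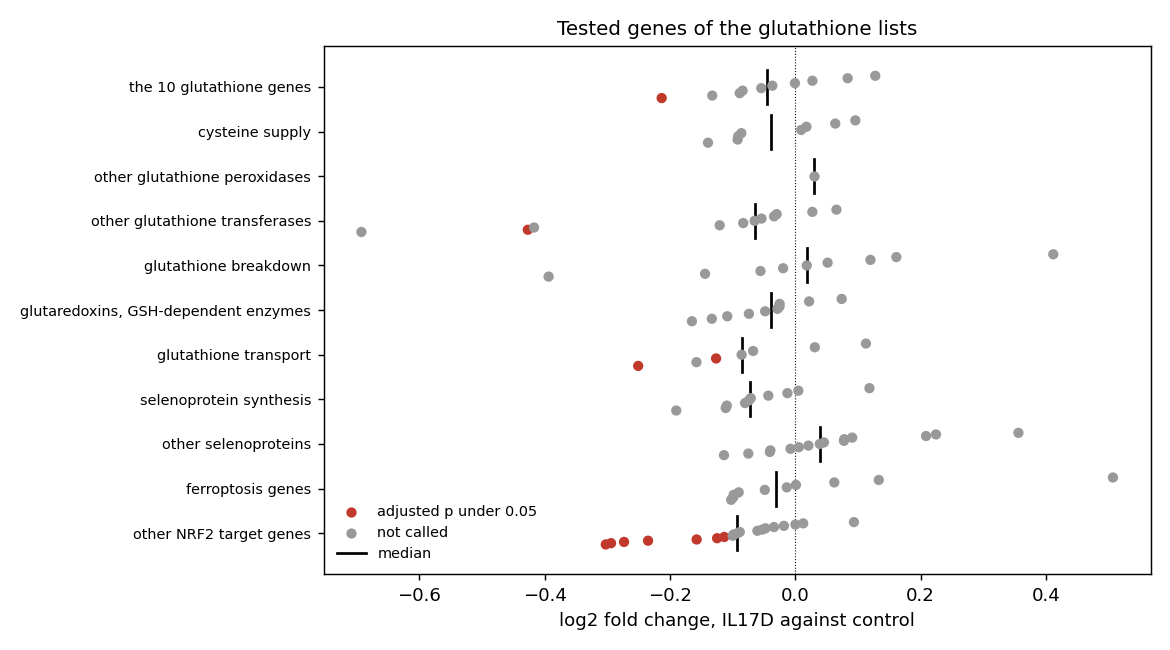
Log2 fold change in IL17D-overexpressing against control cells (x axis) of every tested gene of the 10 members and of the lists by role (rows), with the list's median as a black bar. Red points have an adjusted p under 0.05, and they are GPX2, MGST2, ABCC1, ABCC3 and 7 NRF2 target genes, all below 0.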

How the data were processed

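Poly-A selection, counting tool and strand setting are not given in the sources used here. The submitters' processing notes name Bowtie2 and hg38. The authors deposited raw counts of reads per gene for 6 libraries (14319398 to 16521021 counts), and all 58735 genes have the coordinates of GENCODE release 29. Counts were filtered with filterByExpr, scaled by TMM and compared with edgeR's quasi-likelihood test (edgeR 4.0.16, limma 3.58.1, DESeq2 1.42.0, R 4.3.3), with Benjamini-Hochberg adjustment over 15754 genes. The standard error is the log2 fold change over the square root of F, and 95% intervals use the test's degrees of freedom. Steps were tested on simulated data. Members and lists were chosen with earlier results of these data known. Named were the members, each listed gene with an adjusted p under 0.05 or else its list's smallest p, and the 3 genes most like the member with the smallest p, and 1 gene that this rule takes is not reported here. SLC7A11, SLC3A2, NQO1 and the marker genes were named after their values were seen. The deposited gene length, a value in bases, gave levels per kilobase. Python 3.11.15 (numpy 2.4.6, pandas 2.3.3, matplotlib 3.10.9) was used for sequences and figures. Alternatives were DESeq2's size factors, DESeq2's Wald test, limma voom, other filters, a replicate block and leaving out each library. Total-count scaling and median transcript length were added after the data were seen.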

Additional observations from a re-analysis of the deposited data

How the results depend on the processing

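GPX2 kept its direction and its call under all 13 alternatives, and IL17D did as well. Leaving out each library in turn gave 69 to 129 genes called higher and 76 to 138 called lower over all genes, 0 to 1 higher and 1 to 2 lower among the 10 members, and 0 to 2 higher and 8 to 10 lower in the lists. The members that gained a call were GPX1 without control replicate 2 and GCLM without IL17D-overexpressing replicate 2. Among the ratios, the log2 difference of GPX4 to GPX1 ranged from -0.10 to 0.0050 and that of MGST1 to GSTP1 from -0.094 to 0.026, so their sign rests on 1 library. The log2 fold change of GPX3, near 0, turned positive with DESeq2's size factors (0.00098), DESeq2's Wald test (0.0013), at least 10 counts in every library (3.9e-05) and the replicate block (7.7e-05), and lay between -0.041 and 0.036 without single libraries. That of GPX8 lay between -0.024 and 0.089. Of 351 values of named genes under the alternatives, 328 kept their direction and side of the threshold.

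Over all tested genes, same-numbered libraries deviated from their group means with correlations of 0.0073, -0.0088 and -0.014. Those of differently numbered libraries lay between -0.041 and 0.051. This measure showed no pairing by replicate number, but counting noise of low genes enters it, so it cannot exclude one. With the replicate block, 115 genes were called higher and 157 lower, GPX2 stayed the 1 member called, and in the lists 9 genes were called lower, ABCC1 dropping out. Scaling by other methods moved the median log2 fold change of all genes by -0.0030 to 0.0015.

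Levels per kilobase moved with the length used, a direct result of the shorter lengths. With the median transcript length they were 1183 for GSTP1, 417 for GSR, 408 for GPX2, 369 for MGST1, 181 for GPX4, 173 for GPX1, 116 for GCLC, 82.8 for GSS, 54.9 for GCLM and 16.6 for GPX3 in control cells. GPX3 had the fewest counts of the members, and a change within its interval (-11.7 to 13.1%) could not be told from 0 at this depth.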
